A study of Mus musculus with 12 samples.

Results

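The comparison described here set CD71-positive against CD71-negative thymocytes within one genotype, mice homozygous for a missense change in condensin II. Its members were chosen by their column names in the deposited non-normalized signal table, 3 mutant CD71-positive and 3 mutant CD71-negative arrays, which are 6 of the 12 arrays of the study. Of the 18138 gene symbols in that table, 8247 were detected on at least 3 arrays and were tested. All samples were T cells sorted from the thymus of C57BL6/J mice aged 8 to 12 weeks, a mixture of 50% males per the labels, and all carried both CD4 and CD8 and passed a gate that the sample titles call FSClo. The mutant genotype is written Caph2(I15N) and Caph2nes/nes, and Caph2 is an older name of Ncaph2, the gene of the kleisin subunit that closes the condensin II ring. The other 6 arrays held CD71-negative and CD71-positive cells of wild-type mice, 3 each, gated the same way and of the same strain and ages. Whether arrays of one group stem from different animals is not stated, and p-values therefore reflect spread among samples that may be technical.

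CD71 is the transferrin receptor, which brings iron into cells and is displayed in large amounts by dividing lymphocytes. Thymocytes that have passed the first receptor checkpoint divide in a burst as they gain CD4 and CD8, then leave the cell cycle and rearrange the alpha chain of the T-cell receptor. Condensin I and condensin II are ring-shaped complexes that fold chromosomes for mitosis, condensin II being nuclear throughout the cycle. Sorting double-positive thymocytes by CD71 is used to set dividing cells apart from cells that have stopped dividing.

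Mean signal per mutant array lay between 129 and 182, the dimmest being CD71-positive array 2, and 6153 to 7400 symbols were detected on an array. Across genes, mutant arrays of one subset correlated at 0.963 to 0.993 and arrays of the 2 subsets at 0.865 to 0.897. The first principal component of the 6 arrays carried 80.1% of the variance and placed the subsets on opposite sides. Precision is limited by the number of arrays. Values are normalized log2 signals, and differences are log2 differences, CD71-positive minus CD71-negative, with the standard error of a limma fit (n = 3 arrays a side). An adjusted p under 0.05 counted as passing, and rose and fell are used only for genes that passed. Because whole sorted samples were measured, a lower proportion of cells of one type and less RNA in each cell cannot be told apart. Quantile normalization gave every array the same distribution, so differences are relative to other genes and do not show total RNA per cell.

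The RNA of the sorting marker followed the gate. Tfrc, which encodes CD71, read 7.17, 6.62 and 6.31 on the CD71-negative arrays and 8.04, 7.69 and 8.28 on the CD71-positive arrays. The groups did not overlap, and Tfrc rose by 1.30 ± 0.28 (2.47-fold, adjusted p = 0.0068). Of the co-receptors shared by both subsets, Cd8b1 stood at 12.32, 12.44 and 12.44 in CD71-negative cells, near the top of the scale, and at 11.11, 11.23 and 10.97 in CD71-positive cells. Both subsets thus carried its RNA, and it fell by 1.29 ± 0.17 in CD71-positive cells (adjusted p = 0.00042). Cd4 read 6.54, 6.57 and 6.28 and 5.53, 5.59 and 5.50 in the same order and fell by 0.93 ± 0.16 (adjusted p = 0.0027). Cd8a was detected on 0 of the 12 arrays and was not tested. Ncaph2 itself, detected on all 6 mutant arrays, read 6.58, 6.34 and 6.34 in CD71-negative and 7.66, 7.92 and 7.57 in CD71-positive cells, a rise of 1.30 ± 0.16 (adjusted p = 0.00036). RNA level can stay the same under a missense change, and the value is no check of the genotype label.

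Mutant CD71-positive cells had far higher levels of genes for mitosis and DNA replication and lower levels of genes of resting double-positive thymocytes. By limma, 2375 of the 8247 symbols (28.8%) passed, 1193 higher (14.5%) and 1182 lower (14.3%). The arrays of the subsets did not overlap for 3864 symbols (46.9% of those tested), 2353 of which passed. The median difference over all symbols, largely set by the normalization, was -0.01 and the median size regardless of sign 0.10. Among symbols that passed, the median was 0.68 for rises and -0.64 for falls. Large changes were more often rises, since 86 symbols rose and 43 fell by more than 2 on the log2 scale, and 14 rose and 4 fell by more than 3. Genes are also described by lists of related genes below, to be read against the 14.5% higher and 14.3% lower of all symbols. Lists and members were chosen with earlier results of these data known, so their shares are a description and no test. The detection filter also admits genes detected in only CD71-positive or only CD71-negative cells, which favours calls. Counts and medians of lists include such genes. Where 0 members of a list rose or fell by limma, 0 also did so at an unadjusted p under 0.05, except 1 lower glycolysis gene and 2 higher markers of natural killer cells. Without CD71-positive array 2 the count of all symbols was 1851, and without each of the 12 arrays in turn it ran from 1782 to 2511.

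Of the 15 largest rises, 12 belonged to lists of mitosis, chromosome structure, DNA replication and nucleotide synthesis. Prc1, which bundles the antiparallel microtubules of the central spindle, read 6.96, 6.40 and 6.26 on the CD71-negative arrays and 10.27, 10.33 and 10.63 on the CD71-positive arrays. These values lay far apart, and Prc1 had the largest rise of all symbols that met the naming rule, 3.87 ± 0.17 (14.6-fold, adjusted p = 1.1e-06). Pbk, a mitotic kinase gene, followed at 3.82 ± 0.17 and Plk1, the Polo-like kinase that drives entry into mitosis and spindle assembly, at 3.57 ± 0.06. Plk1 read 5.77, 5.70 and 5.66 against 9.22, 9.34 and 9.28 (adjusted p = 3.8e-09), so the spread within each group was small beside the gap. The others in falling order of size were Kif22 (3.46), 2810417H13Rik (Pclaf, 3.46), Top2a (3.44), Birc5 (3.39), Cdca3 (3.39), Rrm1 (3.24), Aurka (3.22), Ccnb1 (3.20), Mad2l1 (3.18), Ppa1 (3.17), Nrm (3.08) and Ncaph (3.00). Cdca3 is a trigger of mitotic entry, Ppa1 the cytosolic pyrophosphatase that removes a by-product of nucleic acid synthesis, and Nrm a protein of the nuclear envelope. In several of these genes CD71-negative array 1 was the highest of its group, as for Kif22 (6.56, 5.98 and 5.78) and Birc5 (6.46, 5.66 and 5.56), but it stayed below every CD71-positive array.

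**Figure D1:**
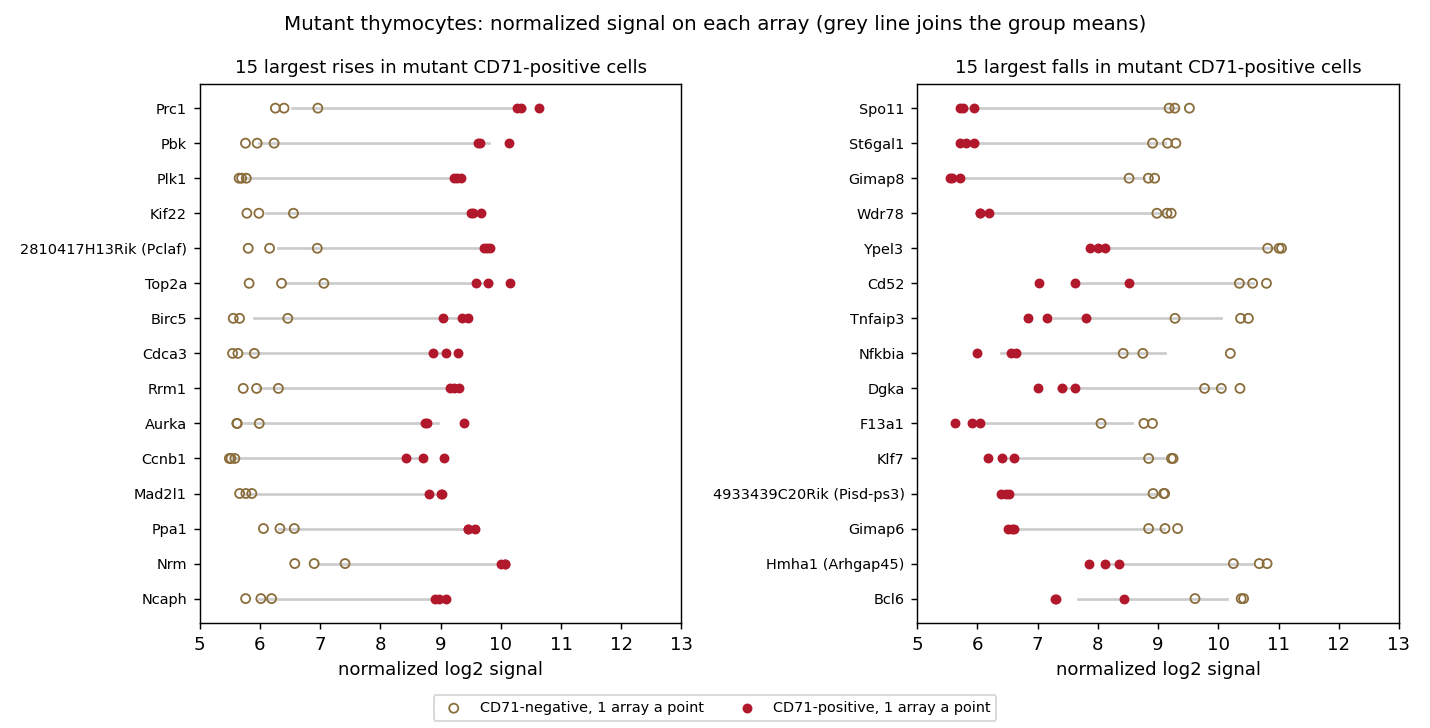
Normalized log2 signal (horizontal axis) of the 15 largest rises (left) and 15 largest falls (right) among named genes, with 1 point for each mutant array, open for CD71-negative and filled for CD71-positive cells, and a grey line between the group means. Prc1 moved from 6.26 to 6.96 up to 10.27 to 10.63, Spo11 fell from 9.18 to 9.52 down to 5.71 to 5.94, and the subsets did not overlap for any of the 30 genes.

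Cyclins, kinases and checkpoint proteins of mitosis rose in 15 of 22 tested cases and fell in 0, with a median difference of 0.66. Of the 22, 9 were detected on no array of a mutant subset and have only a bound. The median with these genes counted at their bounds was also 0.66. Cyclin B1 (Ccnb1) read 5.58, 5.49 and 5.52 in CD71-negative and 8.70, 8.43 and 9.06 in CD71-positive cells. Aurka, the centrosomal Aurora kinase, read 5.99, 5.62 and 5.62 and 8.78, 8.74 and 9.38, and Mad2l1, a spindle checkpoint protein that restrains the anaphase-promoting complex, 5.77, 5.87 and 5.66 and 9.01, 8.80 and 9.03. All 3 sat close to the bottom of the scale in CD71-negative cells and clear of it in CD71-positive cells. The activators of the anaphase-promoting complex rose too, Cdc20 by 2.74 ± 0.12 and Fzr1 by 2.08 ± 0.10, and so did the checkpoint kinase gene Bub1b (1.52 ± 0.22) and Foxm1, a transcription factor of late cell cycle genes (0.97 ± 0.16). Cdc2a (Cdk1), the kinase partner of cyclin B, was detected on 0 of 3 CD71-negative and 3 of 3 CD71-positive arrays and was at least 1.8-fold higher. Here and below, at least marks a bound from the detection limit and not a confidence limit, and it can equal the fitted fold. Mybl2 and Cdc25c, also detected on no CD71-negative array, were at least 1.41-fold and 1.18-fold higher. Of the 7 members that did not pass, Ccna2 (cyclin A2) lay at 5.40, 5.43 and 5.42 and 5.44, 5.42 and 5.54, and Cdc25b differed by 0.19. Ccna2 was detected on 0 CD71-negative and 2 CD71-positive arrays, all within the dimmest part of the scale. Low signal in CD71-negative cells did not by itself prevent a pass, since Fancd2 rose from a mean of 5.45.

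Of 30 tested genes of the spindle, kinetochore and cytokinesis, 26 rose and 0 fell, with a median of 1.21. The chromosomal passenger complex, which corrects attachments of chromosomes to the spindle, had Birc5 at 3.39 ± 0.22, Incenp at 2.68 ± 0.16 and Cdca8 at 2.06 ± 0.12. Incenp read 5.83, 5.74 and 5.70 on CD71-negative and 8.41, 8.30 and 8.59 on CD71-positive arrays, with no overlap. Cenpa, the histone H3 variant that marks centromeres, was already well detected in CD71-negative cells (8.52, 8.39 and 8.20) and rose by 2.71 ± 0.22 to 11.04, 10.88 and 11.32. Of the outer kinetochore and centromere proteins, Spc25 rose by 1.78 ± 0.20, Cenpl by 2.10 ± 0.20, Cenpn by 1.21 ± 0.13 and Cenpp by 1.15 ± 0.27. Motor protein genes also rose, with Kif22 at 3.46 ± 0.18, Kif2c, which depolymerizes microtubules at kinetochores, at 2.30 ± 0.16, Kif11, which pushes spindle poles apart, at 2.29 ± 0.22, Kif23, the central spindle partner of Prc1, at 2.04 ± 0.13, and Kif4 at 0.61 ± 0.07. Nusap1 (2.48 ± 0.16), Ckap5 (2.18 ± 0.18) and Tpx2 (1.43 ± 0.25), which stabilize or nucleate spindle microtubules, also rose. Cenpi and Cit, the citron kinase of cytokinesis, were detected on no CD71-negative array and were at least 1.32-fold and 1.15-fold higher. The 4 members that did not pass were Kif18a (0.20), Cenpq (-0.11) and, detected on no CD71-negative array, Aspm and Zwilch.

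Promoters of these genes are shown because these members moved together and many of them are textbook targets of late cell cycle control. In the mammalian cell cycle, genes of G2 and mitosis are held off in resting cells through a promoter element called CHR and are driven through CCAAT boxes bound by NF-Y, while genes of G1/S use E2F sites. RefSeq promoter sequences (build GRCm38.p6) were scanned on both strands over the 250 bases before each annotated start site. The letters searched were TTTGAA for the CHR, CCAAT for the CCAAT box, and TTT followed by 2 letters each C or G and then CGC for the E2F site. Of 53 genes of the mitotic, spindle and chromosome lists that rose, 45 had a promoter in the table and 12 of these held a CHR and a CCAAT box. Of these, 6 with large rises are printed below as the 120 bases before the start site, 5′ to 3′ on the strand of the gene, with every CHR and CCAAT box on either strand in capitals.
Prc1: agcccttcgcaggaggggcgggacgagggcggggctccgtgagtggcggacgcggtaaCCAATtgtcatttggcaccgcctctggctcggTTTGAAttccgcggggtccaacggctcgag
Kif22: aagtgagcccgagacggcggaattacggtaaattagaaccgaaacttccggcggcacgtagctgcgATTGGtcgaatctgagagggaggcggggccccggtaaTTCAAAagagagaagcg
Top2a: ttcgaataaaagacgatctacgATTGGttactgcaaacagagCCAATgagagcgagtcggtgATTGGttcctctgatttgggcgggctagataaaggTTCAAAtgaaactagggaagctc
Cdc20: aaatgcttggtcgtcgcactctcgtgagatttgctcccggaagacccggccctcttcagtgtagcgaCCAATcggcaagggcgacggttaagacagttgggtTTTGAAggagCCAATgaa
Hmgb2: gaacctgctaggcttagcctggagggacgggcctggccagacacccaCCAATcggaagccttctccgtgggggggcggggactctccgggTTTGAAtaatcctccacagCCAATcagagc
Kif11: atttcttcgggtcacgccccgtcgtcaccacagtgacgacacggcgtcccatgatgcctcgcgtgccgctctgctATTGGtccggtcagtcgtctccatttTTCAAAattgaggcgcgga
The printed stretches are chr7:80294356-80294475 on the plus strand (Prc1), chr7:127042421-127042540 on the minus strand (Kif22), chr11:99024190-99024309 on the minus strand (Top2a), chr4:118437344-118437463 on the minus strand (Cdc20), chr8:57511723-57511842 on the plus strand (Hmgb2) and chr19:37376262-37376381 on the plus strand (Kif11). In Prc1 the CHR begins 30 bases before the start and the CCAAT box 62 bases before it, and in Hmgb2, a chromatin protein gene, the CHR lies at the same distance of 30. The CHR of the other promoters begins 17 bases (Kif22), 18 bases (Cdc20), 19 bases (Kif11) or 23 bases (Top2a) before the start. Top2a holds 3 CCAAT boxes in this stretch, Cdc20 and Hmgb2 hold 2, and the others 1. No motif overlapped another in the printed stretches. The E2F letters occur in none of them.

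The share of promoters with these letters is given as a description without a test. A CHR together with a CCAAT box was found in 13 of 50 promoters of the mitosis, spindle and chromosome members that rose (26%, 95% Wilson interval 15.9 to 39.6). The share was 7.85% among the 1146 promoters of all genes that rose, 3.92% among the 1250 of genes that fell, and 4.45% among the 8083 of all tested genes. A CCAAT box, with or without a CHR, was in 64.0%, 43.1%, 34.1% and 36.0% of the same groups in the same order. The E2F letters were found in 18.2% of 77 promoters of replication, nucleotide and G1/S members that rose, 10% of the mitosis group and 3.27% of all tested. Over 150 bases in place of 250, the CHR with CCAAT share was 22% in the mitosis group and 1.99% in all tested. Intervals cover counting only, some genes have several promoters, and the motifs overlapped each other in 12 promoters of tested genes. A match of letters is not a site shown to be used, and the absence of a match says only that these letters are not in the window.

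Proteins that shape chromosomes rose in 12 of 16 tested cases and fell in 0, with a median of 1.34. Top2a, the DNA topoisomerase that untangles sister chromatids, read 7.06, 6.36 and 5.82 on CD71-negative and 9.79, 9.60 and 10.16 on CD71-positive arrays and rose by 3.44 ± 0.27 (adjusted p = 2.2e-05). The CD71-negative arrays spread over more than 1 log2 unit here, with array 1 highest, yet none reached a CD71-positive array. Of condensin I, Ncaph, its kleisin, read 6.19, 6.02 and 5.76 and 8.97, 8.90 and 9.09 and rose by 3.00 ± 0.18, and Ncapd2 rose by 2.00 ± 0.12. Of condensin II, the complex that carries the mutation, Ncapd3 rose by 1.47 ± 0.16, Ncaph2 by 1.30 ± 0.16 and Ncapg2 by 0.78 ± 0.10. The core subunit Smc2, common to both complexes, was detected on 1 CD71-negative and 0 CD71-positive arrays, so its level there has only a bound. It did not pass. Hmgb2 (2.50 ± 0.31) and the replacement histone gene H2afz (H2az1, 2.23 ± 0.23) rose as well. Of cohesin and its regulators, Smc1a rose by 1.62 ± 0.14, Stag2 by 0.98 ± 0.17, Cdca5 (sororin, which locks cohesin on DNA) by 1.39 ± 0.24 and Espl1 (separase, which cuts it) by 0.82 ± 0.10. Smc3 and Rad21 differed by 0.06 and 0.02 and did not pass. Top2b, the isoform that resting cells also use, differed by -0.41 and did not pass.

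Genes of DNA replication rose in both lists that cover them. Of 20 tested genes of origin recognition, the MCM helicase and origin firing, 15 rose and 0 fell (median 1.71), and of 27 genes of the replication fork 25 rose and 0 fell (median 1.70). Mcm5, a helicase subunit, read 8.04, 7.53 and 7.36 in CD71-negative and 10.77, 10.54 and 10.48 in CD71-positive cells, a rise of 2.96 ± 0.20. Mcm10, which activates the loaded helicase, had closer arrays, 5.62, 5.57 and 5.50 and 8.46, 8.31 and 8.49, and rose by 2.86 ± 0.08 (adjusted p = 6.8e-08). All 6 subunits of the helicase rose, Mcm6 by 2.73 ± 0.09, Mcm2 by 2.47 ± 0.33, Mcm4 by 2.40 ± 0.16, Mcm7 by 1.97 ± 0.26 and Mcm3 by 1.71 ± 0.21. The loading factor Cdt1 rose by 2.26 ± 0.17, Cdc45l (Cdc45) by 1.70 ± 0.18, and Dbf4, the activator of the origin-firing kinase, by 1.69 ± 0.14. Its catalytic partner Cdc7 passed and is counted among the 15 rises, reading 5.89, 6.13 and 5.93 and 7.55, 7.49 and 8.21, but no fold is given because it was called detected on no mutant array. These signals are above those of many genes called detected, so the detection call of Cdc7 is in doubt. Cdc6 was at least 1.49-fold higher. Subunits of the origin recognition complex moved unequally, since Orc6l (Orc6) rose by 2.53 ± 0.23 while Orc2l, Orc3l, Orc4l and Orc5l differed by -0.02 to 0.09 and did not pass.

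At the fork, 2810417H13Rik (Pclaf), a partner of the sliding clamp, read 6.95, 6.16 and 5.81 in CD71-negative and 9.81, 9.77 and 9.72 in CD71-positive cells. Pold1, the catalytic subunit of polymerase delta, rose by 2.82 ± 0.13, the flap endonuclease gene Fen1 by 2.47 ± 0.27, Tipin and Clspn, which hold the fork together under stress, by 2.44 ± 0.10 and 2.22 ± 0.16, and the clamp loader subunit Rfc5 by 1.98 ± 0.07. Genes that copy chromatin also rose, with the histone chaperone subunits Chaf1b and Chaf1a at 2.19 ± 0.13 and 2.08 ± 0.18 and the maintenance methyltransferase Dnmt1 at 2.25 ± 0.16. Uhrf1, which recruits Dnmt1, read 7.64, 7.44 and 7.0 in CD71-negative and 9.78, 9.99 and 10.37 in CD71-positive cells. It was called detected on 0 of 3 CD71-negative arrays at signals where other genes were detected, so that call is in doubt, and the bound of at least 6.45-fold equals the fitted fold. Enzymes that make nucleotides rose in 19 of 21 tested cases and fell in 0, with a median of 0.67. Rrm1, the large subunit of ribonucleotide reductase, read 6.31, 5.95 and 5.72 and 9.16, 9.31 and 9.23 and rose by 3.24 ± 0.14, and the small subunit Rrm2 rose by 1.65 ± 0.17. Ctps, which makes CTP, rose by 2.25 ± 0.10, Impdh2, the gate to guanine nucleotides, by 2.09 ± 0.28, Gart of purine synthesis by 1.84 ± 0.16 and Tyms of thymidylate synthesis by 1.55 ± 0.10.

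Regulators of the G1/S transition rose in 12 of 22 tested cases and fell in 0, with a median of 0.31. E2f1, an activator of replication genes, read 5.90, 5.84 and 5.85 in CD71-negative and 8.42, 8.55 and 8.54 in CD71-positive cells. The spread within each group was small beside the gap, and E2f1 rose by 2.64 ± 0.05 (adjusted p = 3.8e-09). Its partner Tfdp1 rose by 2.17 ± 0.34, Cdk2 by 1.10 ± 0.12 and the pocket protein gene Rbl1 by 0.69 ± 0.12, whereas the other activator E2f2 was bright in both subsets and rose by 0.48 ± 0.10. Of the D-type cyclin genes, Ccnd1 passed (adjusted p = 0.039), was detected on 0 CD71-negative and 3 CD71-positive arrays and was at least 1.61-fold higher. Its call was lost on leaving out any 1 array other than CD71-positive array 2 or 3 of the mutants (adjusted p = 0.051 to 0.095). Ccnd2 and Ccnd3 differed by -0.33 and -0.17, and the inhibitor genes Cdkn1a and Cdkn2d by 0.03 and -0.22, and none of these passed. DNA repair genes rose in 8 of 22 cases and fell in 0 (median 0.08), led by the recombination gene Rad54l at 2.40 ± 0.15. Fancd2 rose by 0.96 ± 0.05, and the helicase gene Blm, detected on no CD71-negative array, was at least 4.03-fold higher.

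Replication-dependent histones, made for new chromatin in S phase, rose in 19 of 41 tested cases and fell in 3, with a median of 0.19. The falls were 7.32% of those tested, below the 14.3% of all symbols. Hist1h3e (H3c6) read 7.87, 7.11 and 6.74 on CD71-negative and 9.09, 9.52 and 8.99 on CD71-positive arrays and rose by 1.96 ± 0.30. Hist1h2ag (H2ac11) rose by 1.67 ± 0.25, from 8.23, 8.53 and 8.19 to 10.03, 10.16 and 9.77, and Hist1h3d (H3c4) by 1.85 ± 0.35. The linker histone gene Hist1h1c (H1f2) went the other way, from 9.74, 9.18 and 8.04 to 7.24, 6.87 and 7.24, a fall of -1.87 ± 0.49 (adjusted p = 0.019). That call was lost (adjusted p = 0.059 to 0.065) without CD71-negative array 1 or 2 or CD71-positive array 2. Without CD71-positive array 1 or 2 the histone rises numbered 12, so the count rests on those arrays. The 3 falls became 0 without CD71-negative array 1 and 1 without CD71-positive array 2 or 3. Histone genes have near-identical copies that an array may not separate.

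**Figure D2:**
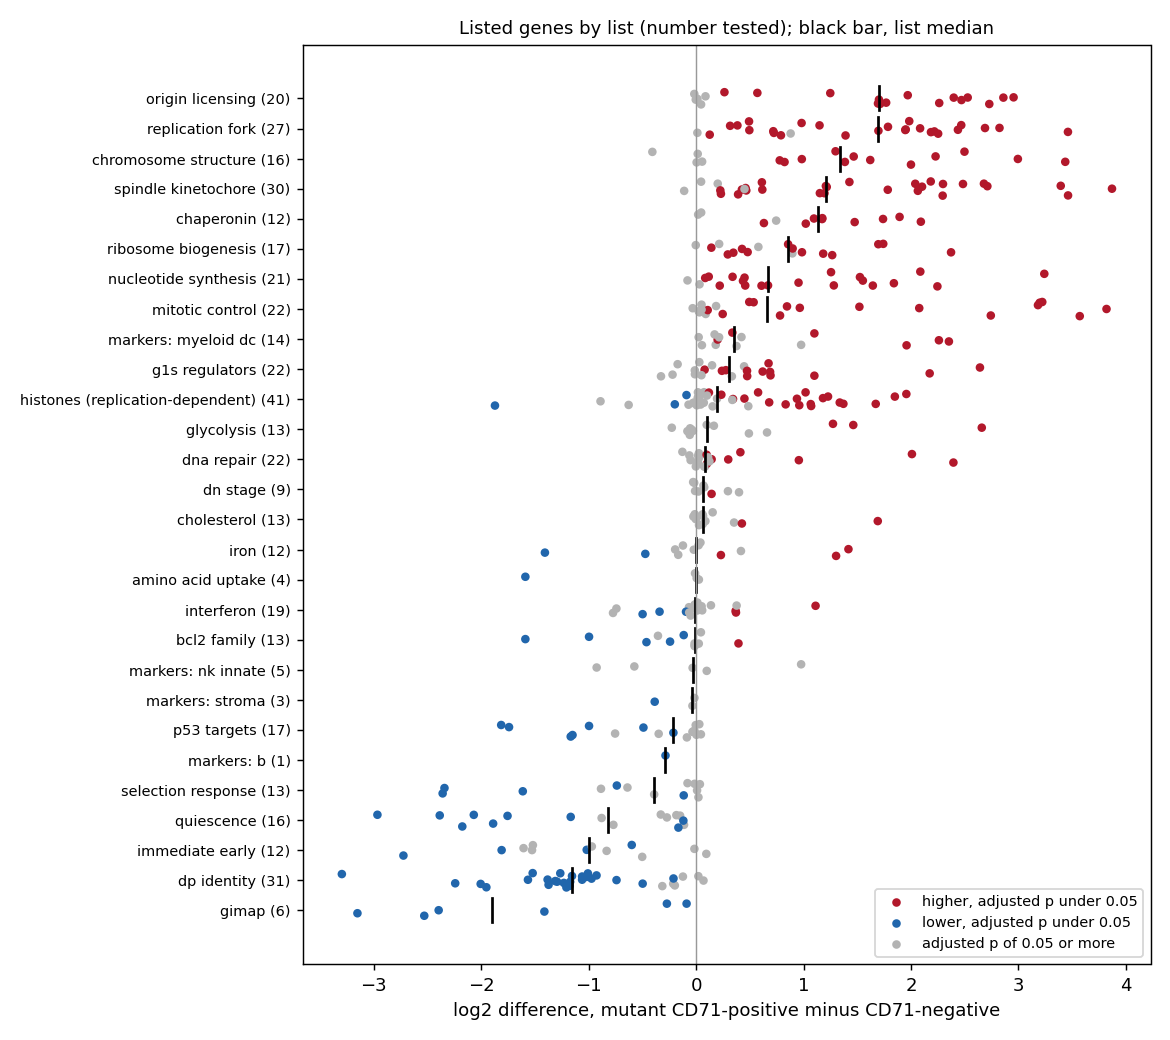
Log2 difference, CD71-positive minus CD71-negative mutant cells (horizontal axis), of each tested gene in 28 lists, with the number tested in parentheses and the list median as a black bar. Fitted values are shown also for genes with only a bound. Origin licensing genes had the highest median, 1.71, with 15 of 20 red points, and the GIMAP genes the lowest, -1.90, with 6 of 6 blue.

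Genes of growth moved with those of division, though not in every pathway. Nucleolar and ribosome assembly genes rose in 13 of 17 tested cases and fell in 0, with a median of 0.86. Nol5 (Nop58), a core protein of the particles that modify ribosomal RNA, read 6.76, 7.34 and 7.52 in CD71-negative and 9.49, 9.45 and 9.80 in CD71-positive cells and rose by 2.37 ± 0.18. Nola2 (Nhp2), of the sister class of particles, rose by 1.74 ± 0.11, the nucleolar GTPase gene Gnl3 by 1.70 ± 0.18, nucleolin (Ncl) by 1.27 ± 0.15 and nucleophosmin (Npm1), already bright in resting cells, by 0.99 ± 0.14. Chaperonins and other folding proteins rose in 9 of 12 cases and fell in 0 (median 1.14), led by the mitochondrial Hspd1 at 2.09 ± 0.21 and Hspa9 at 1.89 ± 0.12 and by the cytosolic ring subunit Cct6a at 1.48 ± 0.21. Hspd1 read 6.17, 6.39 and 6.53 and 8.65, 8.18 and 8.53, without overlap.

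In other metabolic lists fewer genes passed. Of 13 tested genes of glucose transport and glycolysis, 3 rose (23.1%, against 14.5% of all symbols) and 0 fell, and the median was 0.10. Tpi1, triose phosphate isomerase, read 5.95, 5.72 and 5.79 in CD71-negative and 8.60, 8.51 and 8.32 in CD71-positive cells and rose by 2.66 ± 0.14. Ldha rose by 1.46 ± 0.34, while Eno1 differed by -0.23, Pkm2 (Pkm) by 0.66 and the glucose transporter Slc2a1 by -0.08, and these did not pass. Of 13 cholesterol genes 2 rose and 0 fell, a share of 15.4% higher against 14.5% of all symbols. The 2 were Fdps (1.69 ± 0.28) and Sqle (0.43 ± 0.05). Of 4 tested amino acid transporters 1 fell, Slc38a2 (-1.59 ± 0.26), and 0 rose.

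Among 12 tested iron genes 3 rose and 2 fell, with a median of 0.00. Tfrc was among the rises. The mitochondrial iron importer Slc25a37 (mitoferrin 1) fell by 1.41 ± 0.13, from 7.66, 7.64 and 7.72 to 6.33, 6.14 and 6.33. Its arrays did not overlap between subsets. The ferritin heavy chain gene Fth1, which stores iron, fell by 0.47 ± 0.08 (adjusted p = 0.0019), a call lost with the authors' processed values (-0.29, adjusted p = 0.081) and with cyclic loess normalization (-0.31, adjusted p = 0.17). The ferroportin gene Slc40a1 rose by 0.23 ± 0.05, a change close to the dim end of the scale.

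The 15 largest falls were genes of mixed function. Spo11, known as the nuclease that starts meiotic recombination, read 9.18, 9.28 and 9.52 on CD71-negative and 5.76, 5.71 and 5.94 on CD71-positive arrays. It had the largest fall among named genes, -3.52 ± 0.34 (11.5-fold lower, adjusted p = 7.9e-05). St6gal1, a sialyltransferase, followed at -3.30 ± 0.29, read as 8.91, 9.16 and 9.29 and 5.72, 5.93 and 5.82. Gimap8 fell by 3.15 ± 0.24 and Wdr78, known in cilia as an axonemal dynein protein, fell by 3.02 ± 0.29. CD71-positive levels of these genes lay close to the bottom of the scale. Cd52, a short glycoprotein of the lymphocyte surface, fell by 2.85 ± 0.33, Dgka, the kinase that removes diacylglycerol in receptor signalling, fell by 2.72 ± 0.30, and Hmha1 (Arhgap45) fell by 2.47 ± 0.29. F13a1 (-2.72 ± 0.29), Klf7 (-2.71 ± 0.26), Bcl6 (-2.46 ± 0.39) and the pseudogene 4933439C20Rik (Pisd-ps3, -2.58 ± 0.09) completed the list with Ypel3, Gimap6, Nfkbia and Tnfaip3. Tnfaip3, a brake on NF-kappaB, read 10.50, 10.37 and 9.28 and 7.81, 6.84 and 7.15 and fell by 2.79 ± 0.73 (adjusted p = 0.019). Its arrays spread widely within both groups, and the call was lost (adjusted p = 0.056 to 0.065) without CD71-negative array 1 or 2 or CD71-positive array 2.

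Receptor, recombinase and factor genes of double-positive thymocytes fell in 25 of 31 tested cases and rose in 0, with a median of -1.16. Rag1, the recombinase, read 9.51, 9.85 and 10.27 in CD71-negative and 7.61, 7.48 and 8.53 in CD71-positive cells and fell by 2.00 ± 0.31. The gap held although CD71-positive array 3 stood about 1 unit above its group. Cd28 fell by 2.24 ± 0.28 and Cd1d1, which presents lipids to innate-like T cells, fell by 1.95 ± 0.31. Parts of the receptor complex did the same. Cd247 fell by 1.56 ± 0.21, Cd3d fell by 1.38 ± 0.19, Cd3e fell by 1.21 ± 0.15 and Cd3g fell by 1.06 ± 0.10, and so did the kinase genes Lck (-1.31 ± 0.10) and Zap70 (-1.18 ± 0.26). Of the factors, Bcl11b fell by 1.26 ± 0.21, Tcf7 fell by 1.06 ± 0.17, Ets1 fell by 1.02 ± 0.11 and Satb1 fell by 1.01 ± 0.13. Ptcra, the surrogate alpha chain of the preceding stage, differed by 0.07, Rag2 by -0.12 and Lef1 by -0.21, and these did not pass. Of 9 tested genes of the preceding double-negative stage 1 rose (11.1%, below the 14.5% of all symbols) and 0 fell. The 1 that rose was the Notch target Nrarp (0.14 ± 0.03). Notch1 differed by 0.40 and Il2ra by -0.03.

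Genes tied to rest in lymphocytes fell in 9 of 16 tested cases and rose in 0, with a median of -0.82. Ypel3, a small growth-arrest protein, read 10.82, 11.05 and 11.01 in CD71-negative and 7.87, 8.12 and 8.00 in CD71-positive cells and fell by 2.97 ± 0.28. Btg1, an antiproliferative gene, fell by 2.39 ± 0.25, Txnip, which limits glucose uptake, fell by 2.18 ± 0.45, Pik3ip1, a brake on PI3 kinase, fell by 2.07 ± 0.15, and Tsc22d3, a glucocorticoid target, fell by 1.89 ± 0.34. Klf2 and Foxo1 differed by -0.11 and -0.15 and did not pass. All 6 tested GIMAP genes, GTPases of lymphocyte survival that lie in one cluster in the genome, fell, with a median of -1.90. Gimap8 read 8.52, 8.94 and 8.84 and 5.55, 5.72 and 5.57, and Gimap6 9.32, 9.12 and 8.84 and 6.51, 6.62 and 6.57. Gimap1 fell by 2.40 ± 0.30 and Gimap9 fell by 1.41 ± 0.16, while Gimap7 (-0.27 ± 0.06) and Gimap5 (-0.09 ± 0.03) were dim in both subsets.

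Genes induced by receptor signals and positive selection fell in 5 of 13 tested cases and rose in 0, with a median of -0.39. Egr1, an early target of the T-cell receptor, read 8.62, 8.22 and 9.47 in CD71-negative and 6.64, 6.23 and 6.36 in CD71-positive cells and fell by 2.36 ± 0.43. Cd27 fell by 1.61 ± 0.22, with no overlap. Cd69, an activation marker, read 10.23, 9.31 and 9.01 and 8.09, 7.19 and 6.25 and fell by 2.34 ± 0.68 (adjusted p = 0.03), but the call was lost (adjusted p = 0.065 to 0.097) without CD71-negative array 1 or 2 or CD71-positive array 2 or 3. A count of 5 became 3 without CD71-negative array 2 or CD71-positive array 2 or 3. Immediate-early genes fell in 4 of 12 cases and rose in 0 (median -0.99). Nfkbia, the inhibitor that NF-kappaB itself induces, read 10.20, 8.75 and 8.42 and 6.56, 6.64 and 5.99 and fell by 2.72 ± 0.53, and Dusp2 fell by 1.81 ± 0.43. CD71-negative array 1 was the highest of its group for both genes. Junb (-1.61), Zfp36 (-1.53) and Dusp1 (-1.52) were of similar size and did not pass.

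Targets of p53 fell in 7 of 17 tested cases and rose in 0, with a median of -0.21. Trp53inp1 read 9.77, 9.81 and 10.14 and 7.84, 7.96 and 8.47 and fell by 1.81 ± 0.17, and the death receptor gene Fas fell by 1.74 ± 0.23. Cdkn1a, the best known p53 target, differed by 0.03, Bax by 0.04 and Ccng1 by -0.35, and these did not pass. Of 13 BCL2 family genes 5 fell (38.5%, against 14.3% of all symbols) and 1 rose (7.69%, against 14.5%). Mcl1, which protects double-positive cells from death, read 8.50, 9.16 and 9.79 and 7.37, 7.73 and 7.59 and fell by 1.59 ± 0.29, and Bid, a promoter of death, rose by 0.39 ± 0.08. Interferon-stimulated genes had 3 of 19 higher and 3 lower (median -0.01), a share near the background in each direction. The 3 lower became 5 without CD71-negative array 1 or CD71-positive array 2, 1 without CD71-negative array 2 or CD71-positive array 1, and 0 with the 6 mutant arrays alone. Psmb9, an immunoproteasome subunit gene, rose by 1.11 ± 0.15, while Usp18 differed by 0.06 and Ifi27 by -0.77, neither passing.

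Markers of other cells of the thymus were read on the same arrays. Of 8 erythroid markers on the array, whose cells also display CD71, 0 were tested. Of these, 6 were detected on no mutant array, among them Hbb-b1, Alas2 and Klf1. The globin gene Hba-a1 and the receptor gene Epor were each detected on 1 CD71-positive and 0 CD71-negative arrays, and the summed linear level of the list was 338 to 340 in CD71-negative and 339 to 342 in CD71-positive cells. All 8 were undetected in CD71-negative cells, so the sum there holds only values of undetected genes. Undetected genes add such values to every summed level given here and below, which narrows relative differences. The 1 tested B-cell marker, Cd79b, fell by 0.29 ± 0.07, and Pax5 was detected on no mutant array. Of 5 natural killer and innate-like T-cell markers 0 rose and 0 fell by limma, and 2 were higher at an unadjusted p under 0.05, Klrd1 (0.10) and Fcer1g (0.98), which the myeloid list also holds. Of the other members, Nkg7 differed by -0.57 and Xcl1 was dim in both subsets. Prf1 read 5.73, 7.63 and 8.48 in CD71-negative and 6.03, 5.92 and 7.12 in CD71-positive cells, but was called detected on 1 and 0 of these arrays. The summed linear level of the 11 listed genes was 561, 631 and 789 on CD71-negative and 523, 629 and 580 on CD71-positive arrays, so the subsets overlapped. Without CD71-negative array 1, 2 of these markers fell, and without CD71-positive array 2 or 3, 1 or 2 rose. Of 3 tested stromal markers 1 fell, Pecam1 (-0.39 ± 0.05), and Foxn1 and Krt5 were detected on no mutant array.

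Some markers of myeloid and dendritic cells were higher in CD71-positive cells. Of 14 tested, 6 rose and 0 fell, with a median of 0.36. Cd74, the invariant chain of MHC class II, read 5.75, 5.53 and 5.51 on CD71-negative arrays and 8.20, 9.31 and 6.34 on CD71-positive arrays. The class II chains H2-Ab1 and H2-Eb1 had the same order of arrays, 7.83, 9.12 and 6.51 and 7.58, 8.59 and 6.27 in CD71-positive cells, so array 2 was the highest and array 3 the lowest in all 3 genes. Their differences were 2.35 ± 0.60, 2.26 ± 0.52 and 1.96 ± 0.46 (adjusted p = 0.017, 0.011 and 0.011), and H2-Aa rose by 1.10 ± 0.21. The macrophage gene Lyz2 rose by 0.34 ± 0.08, and Tyrobp, detected on no CD71-negative array, was at least 1.12-fold higher. The Tyrobp call was lost without any 1 of the CD71-negative arrays, CD71-positive array 1, or, of wild type, array 2 of the CD71-negative and array 1 of the CD71-positive cells (adjusted p = 0.051 to 0.091). It was also lost with no filter (adjusted p = 0.065), the authors' values (0.052) and the 6 mutant arrays alone (0.13). The summed linear level of the 21 listed genes was 1142 to 1204 in CD71-negative cells and 1888, 3058 and 1329 on the CD71-positive arrays. In wild type the sum was 1005 to 1084 in CD71-negative and 1175 to 1437 in CD71-positive cells, also without overlap. The wild-type median of the tested markers was 0.06, and 0 passed there. By limma 0 of the 14 had a difference between genotypes that passed. The defining genes Itgax, Lyz1 and C1qa were detected on no mutant array, and Itgam and Csf1r on 1 and 2. The Cd74 call was lost without CD71-negative array 2 or CD71-positive array 1 (adjusted p = 0.051 and 0.058). The list count became 10 without CD71-positive array 2 or 3 and 1 when the 6 mutant arrays were fitted alone. Whether such cells contributed to other differences was not tested. Without CD71-positive array 2, 1009 symbols rose and 842 fell.

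**Figure D3:**
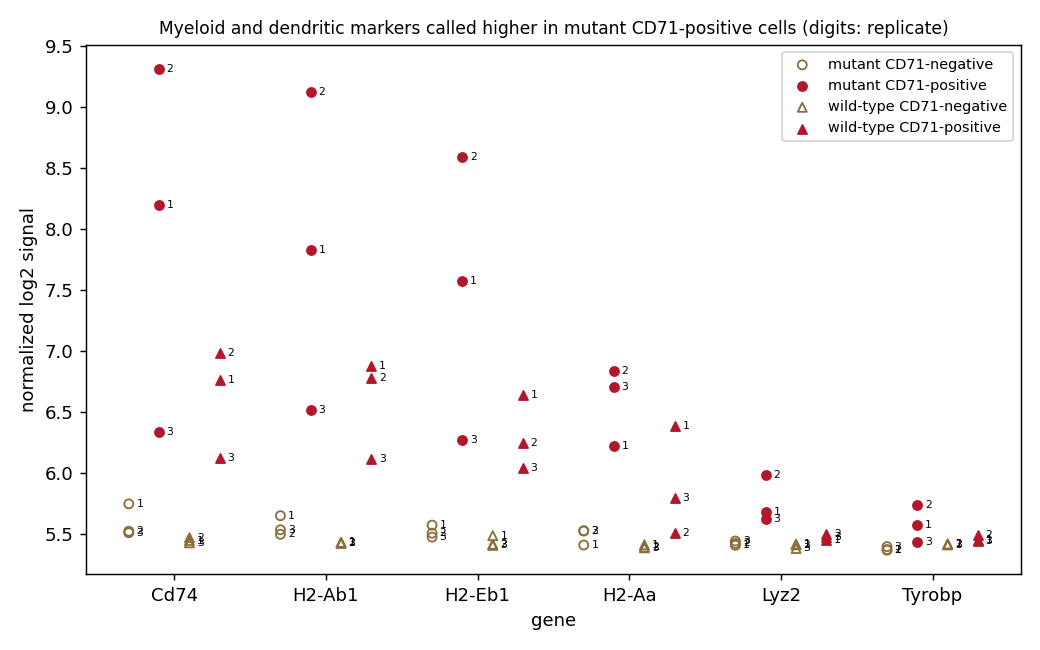
Normalized log2 signal (vertical axis) of the 6 myeloid and dendritic markers that rose, with 1 point for each array, circles for mutants and triangles for wild type, open for CD71-negative and filled for CD71-positive cells, and the replicate number beside each point. Cd74 reached 9.31 on mutant CD71-positive array 2 and 6.34 on array 3, against 5.51 to 5.75 on the mutant CD71-negative arrays.

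The last comparison asked whether the difference between the subsets was itself changed by the Caph2 mutation. In wild type, 2067 of 8247 symbols passed (25.1%). The difference of the differences passed for 1 symbol (0.0121%), and 466 of the 8247 had an unadjusted p under 0.05. With no true difference, a share of 0.05 of the symbols would fall under that threshold. That symbol, LOC100044190, has no match in the annotation. It read 7.01, 6.87 and 6.77 and 7.96, 7.91 and 7.94 in mutant CD71-negative and CD71-positive cells and 6.41, 6.47 and 6.25 and 6.33, 6.21 and 6.45 in wild type, so the subsets overlapped in wild type and not in mutants. The difference was 1.05 ± 0.08 in mutants and -0.04 ± 0.08 in wild type, and they differed by 1.09 ± 0.11 (adjusted p = 0.033). In 8 fits that each left out 1 array it no longer passed (adjusted p = 0.064 to 0.19). The arrays left out in these were, of the mutants, every CD71-positive array and CD71-negative arrays 2 and 3, and, of wild type, CD71-negative arrays 1 and 2 and CD71-positive array 1. It also did not pass under 6 of 9 other settings (adjusted p = 0.069 to 0.59). Of the 2375 symbols that passed in mutants, 733 did not pass in wild type, but the difference between genotypes passed for 1 of these.

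Fitted differences of single genes were set side by side with those of wild type. Of the 15 largest rises, chosen on the mutant values, 14 were smaller in mutants than in wild type, and 0 of the 15 differences between genotypes passed by limma (adjusted p = 0.33 to 1.0, with 6 at an unadjusted p under 0.05). Prc1 differed by -1.12 ± 0.25 between genotypes (adjusted p = 0.33) and Top2a by -1.22 ± 0.38 (adjusted p = 0.61). Their CD71-negative means were higher in mutants (6.54 and 6.41) than in wild type (5.95 and 5.73). Their CD71-positive means were lower in mutants (10.41 and 9.85) than in wild type (10.95 and 10.38). Among spindle and kinetochore genes the median difference between subsets was 1.21 in mutants and 1.59 in wild type, 27 of 30 being smaller in mutants. Nucleotide synthesis ran the other way, with medians of 0.67 and 0.39 and 18 of 21 larger in mutants, and so did chaperonins, at 1.14 and 0.70 with 10 of 12 larger. By limma 0 of these genes had a difference between genotypes that passed. At an unadjusted p under 0.05 were 7 spindle, 4 nucleotide and 2 chaperonin genes, against 466 of all 8247 symbols. The genes of a list were read on the same arrays, so these counts are not independent observations. All 15 largest falls were larger in mutants, which their choice on the mutant values favours. Of them 0 had a difference between genotypes that passed, and 2 had an unadjusted p under 0.05. The closest to passing among named genes after LOC100044190 were at adjusted p = 0.24. They included Ssbp2, a partner of LIM-domain complexes, which fell by 1.24 ± 0.11 in mutants and differed by -0.24 ± 0.11 in wild type, and Nol10, a nucleolar protein gene, which rose by 1.45 ± 0.11 and 0.65 ± 0.11. Mutant Ssbp2 levels were 7.79, 8.07 and 7.69 and 6.61, 6.60 and 6.65.

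**Figure D4:**
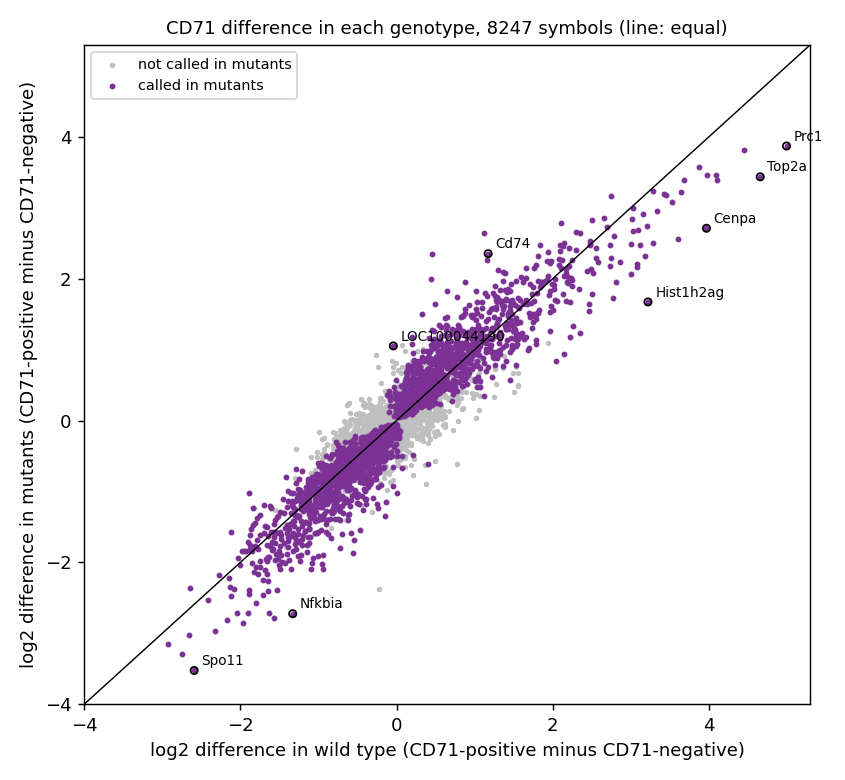
Log2 difference between CD71-positive and CD71-negative cells in mutants (vertical axis) against that in wild type (horizontal axis) for the 8247 tested symbols, purple where the mutant difference passed, with a line of equal values. Prc1 (3.87 in mutants, 4.99 in wild type) and Top2a (3.44 and 4.66) lie below the line, Spo11 (-3.52 and -2.59) lies further from 0 in mutants, and LOC100044190 (1.05 and -0.04) is the 1 symbol whose difference between genotypes passed.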

How the data were processed

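RNA of sorted thymocytes was measured on 12 single-colour arrays, 3 in each of 4 groups. Per the file headers, the main deposited table holds linear intensity values and, beside each, a detection p-value, for 1 entry per gene symbol. It names no probes, and the sources used here do not say how probes were combined. A second table holds the authors' processed intensity values, credited to RMA in the submitters' processing notes, linear and uncentred, with an unknown background step. It served as an alternative. Columns were matched to samples by name, and 0 columns belonged to other samples. The deposited detection p-value did not strictly follow signal: of 1144 symbols among the brightest 10% on all arrays, 2 were detected on none.

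Intensities were background corrected, offset by 16, quantile-normalized and put on the log2 scale by neqc of limma 3.58.1 (R 4.3.3). The offset shrinks changes of dim genes. Symbols were tested if their detection p was below 0.05 in 3 or more arrays. A model of 4 group means was fitted to all 12 arrays (lmFit, eBayes), with a shared estimate of spread. The contrasts were CD71-positive minus CD71-negative cells in mutants, the same in wild type, and the difference of both. Tests were two-sided, with Benjamini-Hochberg adjustment over the tested symbols. For a gene that 0 arrays of a group detected, only a bound is given: the mean of the brighter group over that of the dimmer, where each dim array counts at its own value or at the lowest detected signal, whichever is higher. The bound is not a confidence limit, and it can equal the fitted fold. The fit was tested on simulated data. Deviations of same-numbered mutant arrays correlated at 0.51, -0.30 and 0.50, so the numbers were not taken to pair them.

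The 29 gene lists held 620 genes, 561 on the array and 442 tested. Members and lists were chosen with earlier results of these data known. The rule for named genes took the markers Tfrc, Top2a and Prc1 with Ncaph2 and the co-receptor genes. It added the 15 largest changes each way that passed without overlap and had a matched symbol, and up to 5 members of a list per direction. It also took any member of the mitosis, spindle, chromosome, origin, double-positive, iron and marker lists, and the 5 smallest p-values each way between genotypes. A few genes under this rule are not reported here, and some other members are named in places, chosen after their values were seen. RefSeq annotation of GRCm38.p6 matched 14309 symbols directly and 2886 as synonyms, while 73 had several matches and 870 none. Current symbols stand in parentheses. Promoters were found for 6310 tested symbols.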

Additional observations from a re-analysis of the deposited data

Results flagged for a closer look

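LOC100044190 is given a second look because a test of the difference itself found its CD71 effect larger in mutants than in wild type, by 1.09 ± 0.11 on the log2 scale (limma, adjusted p = 0.033). The effect was 1.05 ± 0.08 in mutants and -0.04 ± 0.08 in wild type. It no longer passed in 8 of 12 fits that left out 1 array, nor under 6 of 9 other settings. The annotation used holds no match for this symbol.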

How the results depend on the processing

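The count of symbols that passed between mutant subsets was 2032 to 2813 under background from dim genes, the authors' processed values, cyclic loess, no filter, detection on all 3 arrays of a mutant group, the 6 mutant arrays alone, a trended robust fit, an offset of 50 and the replicate block. On leaving out each array in turn it was 1782 to 2511, with 936 to 1223 higher and 842 to 1310 lower. Array weights gave 4358, 2023 higher and 2335 lower. With the replicate block the count was 2367, 1178 higher and 1189 lower, 2204 of them shared with the 2375 reported, and 0 symbols differed between genotypes. Arrays 1 and 3 correlated best with their own number and array 2 did not. The genotype comparison also gave 0 with background from dim genes, the authors' values, cyclic loess, no filter and the trended robust fit. It gave 45 with array weights (22 higher and 23 lower), and 0 to 5 (0 to 4 higher, 0 to 1 lower) on leaving out an array. Of 207 named genes, 161 kept their direction and side of the threshold in all 22 settings. The near-zero difference of Chchd2 (0.02) became -0.035 with array weights and ran from -0.0069 to 0.072 on leaving out each array in turn, and that of Dpp3 (0.06) became -0.022 with the authors' values. Of 1232 counts of list members, 66 moved by more than 1.5 times, or went from 0 to a higher count or to 0. The cause of these changes was not tested. Signal near background limits dim genes such as Ccna2 and Smc2.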
